A study of Arabidopsis thaliana with 8 samples.

Results

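PRL, also called PROLIFERA or MCM7, and AT5G65360, a histone H3 gene, are transcripts that dividing cells use to copy DNA and to package the copy. Each was read by 1 probe set of the Affymetrix AtGenome1 array, PRL (AT4G02060) by 12926_s_at and AT5G65360 by 17938_at. These are the probe sets that the platform annotation assigns to either gene alone, 2 of the 3602 genes named by 1 or more probe sets. Probe sets entered the tests where their signal averaged 100 or more, which both did, as did 4788 in all. The genes were chosen by their log2 fold changes on these same arrays, as the lowest in yda-2 among the tested genes of a division and chromatin list. Their difference between the genotypes is therefore given as a description, and the counts of calls printed with it support nothing about them.

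The study compared wild type (WT) Arabidopsis thaliana with plants of the yda-2 genotype, which carry a mutant YODA (YDA) gene. YDA is a kinase at the head of a MAP kinase cascade that limits how many stomata form. Both genotypes grew on potting mix in chambers under constant light at one temperature, and total RNA came from the above-ground parts of rosettes that had not yet bolted. Each genotype had 4 arrays, 1 for each biological replicate, with replicates raised and collected at separate times. The labels name the allele but give neither its lesion nor the ecotype, and do not say how many plants went into a replicate. The YDA transcript is not analysed here, and no targeted gene checks the genotype labels.

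In plants, as in yeast and animals, the MCM subunits form the ring-shaped helicase that is loaded onto origins in G1 phase and unwinds DNA in S phase. MCM7 is one of its subunits. Histone H3 of the H3.1 type is made mainly in S phase and is placed on new DNA behind the fork, whereas H3.3 is deposited independently of replication. In a rosette, DNA is copied in the meristem and young leaves, where cells divide, and also in expanding leaf cells that enlarge by endoreduplication, in which the genome is copied without division. The whole rosette was sampled, so fewer replicating cells and less of the transcript per cell cannot be told apart.

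PRL was lower in yda-2 in 4 of 4 same-numbered pairs. Its signal in WT was 870.9, 1018.4, 1191.1 and 1133.2 in replicates 1 to 4. In yda-2 it was 466.4, 623.7, 906.5 and 776.2. The genotypes overlapped only in that yda-2 replicate 3 lay above WT replicate 1. Within its own pair every yda-2 array was below its WT partner. The yda-2 signal was 0.536, 0.612, 0.761 and 0.685 of the WT signal in pairs 1 to 4, so the gap was widest in pair 1 and narrowest in pair 3. Mean signals were 1053 ± 141 for WT and 693.2 ± 190.3 for yda-2 (SD, n = 4 each), a log2 fold change of -0.62 (SE 0.25). With the replicate pairs as a block the fold change was the same and its SE was 0.18.

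AT5G65360 was also lower in yda-2 in 4 of 4 pairs, by less than PRL in pairs 1 and 2 and by more in pairs 3 and 4 on the log2 scale. Its signal in WT was 2895.0, 3576.2, 4639.1 and 3493.2 in replicates 1 to 4. In yda-2 it was 2680.6, 2563.5, 3136.8 and 2384.8. WT replicate 1 lay below yda-2 replicate 3, and the other WT arrays lay above every yda-2 array. The yda-2 signal was 0.926, 0.717, 0.676 and 0.683 of the WT signal in pairs 1 to 4. Pair 1, where PRL differed most, was the pair where AT5G65360 differed least. Mean signals were 3651 ± 725 for WT and 2691 ± 321 for yda-2 (SD, n = 4 each), a log2 fold change of -0.42 (SE 0.25, and 0.17 with the block).

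**Figure D1:**
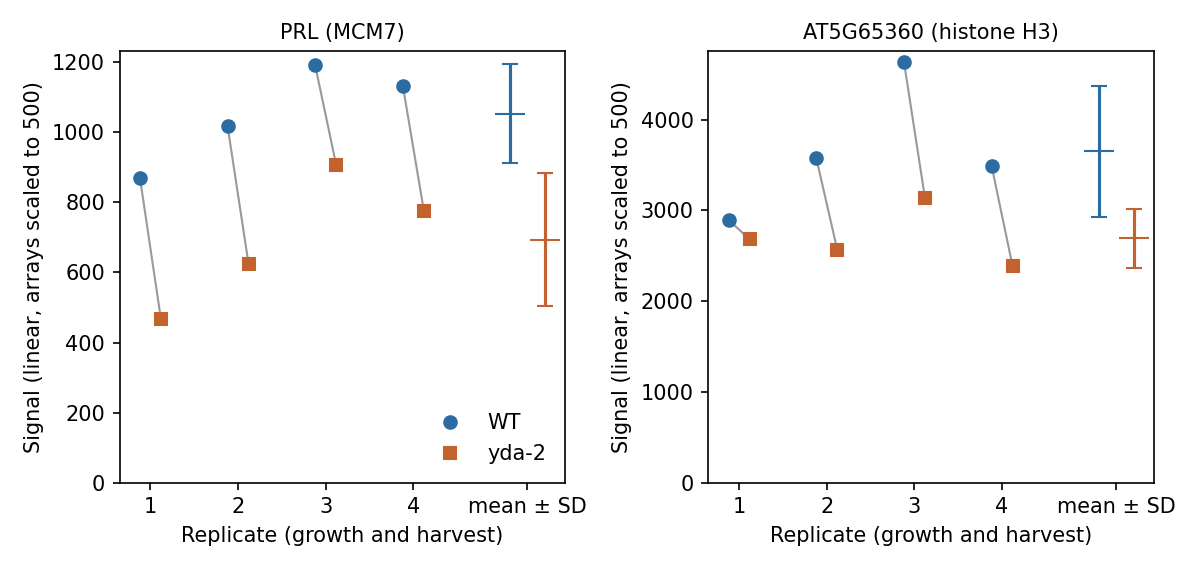
Signal of PRL (left) and AT5G65360 (right) on each array, on a linear axis from 0, with replicates 1 to 4 along the horizontal axis, WT as blue circles and yda-2 as orange squares; grey lines join same-numbered arrays and bars at the right give the mean and SD of 4 arrays. Every yda-2 point lies below its WT partner, and in pair 1 the gap is widest for PRL (466.4 against 870.9) and narrowest for AT5G65360 (2680.6 against 2895.0).

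Over all tested probe sets, 7.10% were lower in yda-2 in 4 of 4 pairs, a pattern both genes were in effect chosen for. Limma p-values were adjusted by Benjamini-Hochberg over all probe sets. At an adjusted p under 0.05, 0 of the 2 genes passed, where 0.0418% of probe sets were called. With the block 0 of 2 passed, where 0.188% were called. The calls of both fits were all higher in yda-2, and 0 probe sets were called lower. At an unadjusted p under 0.05 there were 1 of the 2, PRL, without the block (3.22% of all probe sets) and 2 of 2 with it (7.10%). These counts come from the contrast that chose the genes and say nothing further about them. In the replicate pairs the 33 bacterial and phage control probe sets, which read transcripts foreign to the plant, were also lower in yda-2 in 4 of 4, with mean log2 differences of -0.22, -0.32, -0.03 and -0.27. The log2 ratio of the 3' to the 5' ubiquitin probe set, a measure of RNA or labelling quality, was higher in yda-2 by 0.59, 0.66, 0.01 and 0.09. Their part in the result was not tested. The log2 differences of PRL in the same pairs were -0.88, -0.69, -0.39 and -0.54, largest in the pairs with the larger ubiquitin differences, and those of AT5G65360 were -0.11, -0.48, -0.56 and -0.55.

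The brightest probe sets of these arrays leaned towards lower values in yda-2. The median log2 fold change was 0.03 for the 835 probe sets with a mean signal from 500 to 1000, the range that holds PRL at 873.3. It was -0.02 for the 350 probe sets from 2000 to 4000, the range that holds AT5G65360 at 3171, and -0.12 for the 327 at 4000 or above. Quantile normalization, which gives all arrays the same distribution of signals, left PRL at -0.66 and AT5G65360 at -0.40, against -0.62 and -0.42 before it. The share of probe sets lower in 4 of 4 pairs was 6.59% and 12.3% in those 2 ranges.

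**Figure D2:**
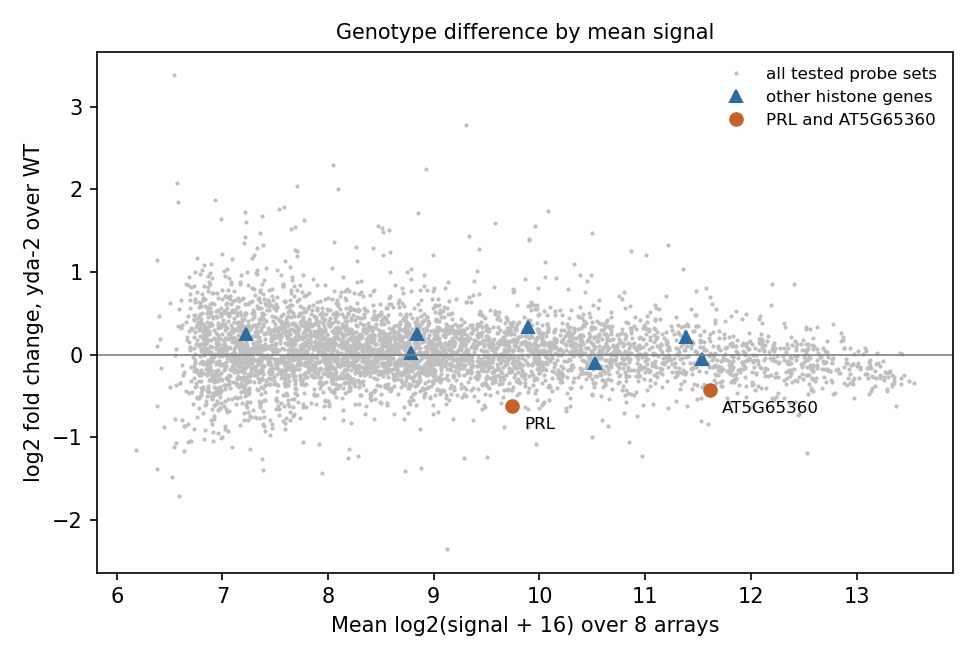
Log2 fold change (yda-2 over WT) against mean log2(signal + 16) over the 8 arrays for all 4788 tested probe sets (grey), the other 7 histone genes (blue triangles) and the 2 chosen genes (orange circles). PRL at -0.62 and AT5G65360 at -0.42 lie in the lower part of the cloud, and the other histone genes lie between -0.10 and 0.33.

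Harvest offered a comparison that did not enter the choice of genes, because replicates were raised at different times and each replicate number held both genotypes. Same-numbered arrays were taken to share a harvest. Mean PRL signals over the 2 arrays of a harvest were 668.7, 821.1, 1049 and 954.7 for replicates 1 to 4, so the highest harvest was 1.57 times the lowest. Harvest 1 was the lowest in both genotypes and harvest 3 the highest in both. The moderated F test across harvests, with genotype as a term, gave PRL an adjusted p = 0.273 in limma. AT5G65360 had harvest means of 2788, 3070, 3888 and 2939, the highest 1.39 times the lowest, and an adjusted p = 0.469 in limma. Its highest array was that of harvest 3 in both genotypes, whereas its lowest was harvest 1 in WT and harvest 4 in yda-2. Of all tested probe sets, 8.29% passed this test and 27.7% had an unadjusted p under 0.05, against 0 of 2 and 0 of 2 here. A difference between harvests of the size seen was thus not distinguished from the spread between arrays for either gene. Harvest cannot be told apart from anything else the arrays of one number shared, such as labelling or hybridization. The arrays also differed in range. Their highest signal was 22519.2 to 33920.4 in replicates 1 and 2 and 6226.4 to 10421.7 in replicates 3 and 4. Mean log2 signals of the control probe sets were 7.78 to 8.48 and 6.64 to 6.86. The part of this in differences between harvests was not tested.

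Both genes varied less within a genotype than the median tested probe set. The within-genotype SD on the log2 scale was 0.32 for PRL and 0.23 for AT5G65360, against a median of 0.47 over all tested probe sets. Of those, 2690 had mean signals of 100 to 500, dimmer than both genes, and probe sets of like signal were not compared. The limma SE of the genotype difference was 0.25 for both genes and 0.23 to 0.46 for the other tested histone genes. Once the genotype means were removed, the 2 genes correlated with each other at r = 0.48 over the 8 arrays, which were taken to share harvests in pairs. By that measure AT5G65360 ranked 604 among the 2034 named probe sets that could be set beside PRL, and PRL ranked 222 beside AT5G65360.

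The named genes most like PRL in this measure were AT2G17410, AT1G15060, AT2G04400, which encodes indole-3-glycerol phosphate synthase of tryptophan synthesis, scpl29, a serine carboxypeptidase-like gene, and AT4G14160, which encodes a Sec23/Sec24-family protein of vesicle transport. Their r lay between 0.939 and 0.951 over 8 arrays, and they were the top 5 of 2034, so high values are in part the result of choosing. As for PRL, the harvest mean of each was lowest in harvest 1 and above those of harvests 1 and 2 in harvests 3 and 4. The arrays of these replicates also differed in range, as given above. Unlike PRL and the others, scpl29 passed the harvest test (limma F, adjusted p = 0.0215). Their own log2 fold changes between genotypes lay between -0.03 and 0.26. The genes most like AT5G65360 were AT4G02370, AT2G34357, AT2G20450 and AT1G04480, the last pair encoding proteins of the large cytosolic ribosomal subunit, and AT4G27900, with r between 0.816 and 0.920. Their genotype differences lay between -0.22 and 0.17.

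**Figure D3:**
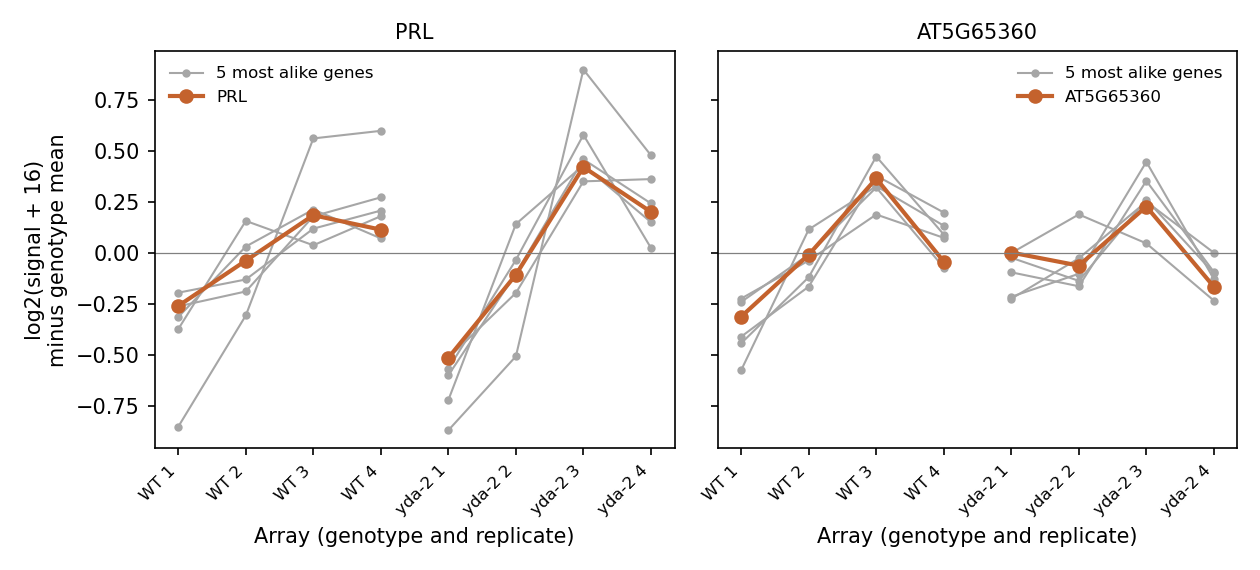
Log2(signal + 16) minus the mean of the genotype, for PRL (left) and AT5G65360 (right, orange) and the 5 named genes most like each (grey), over the 8 arrays; lines join the 4 arrays of a genotype and carry no order. PRL is lowest on the replicate 1 arrays of both genotypes, and AT5G65360 is highest on the replicate 3 arrays of both.

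Few other genes of DNA replication could be followed. Of 46 replication genes listed (helicase, origin recognition, polymerase, clamp and ligation genes), 3 had a probe set with their name and 1, PRL itself, reached a mean signal of 100. TOPII, DNA topoisomerase II, which untangles copied chromosomes, had signals of 15.4, 181.1, 58.9 and 72.8 in WT and 29.7, 22.1, 22.3 and 60.2 in yda-2. Its mean log2 difference was -0.75, with yda-2 lower in 3 of 4 pairs. Its WT signals differed among themselves by more than the genotypes did, since WT replicate 2 held the highest value and replicate 1 the lowest. AT5G26680, which encodes the flap endonuclease FEN1 that trims Okazaki fragments, lay between 21.5 and 58.7 on all 8 arrays. Neither gene was tested. The lists of 7 nucleotide supply genes, 5 chromatin assembly genes, 52 cell cycle regulators and 17 meristem and leaf primordium genes had 0 genes with a named probe set. Names could be searched on the 3794 probe sets with 1 named gene, where the array held 8247 without controls. Whether other probe sets read these genes was not tested. A list of dividing-tissue markers was therefore not available to set beside PRL and AT5G65360.

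Histones gave the closest comparison. Of 40 core histone and linker histone H1 genes listed, 8 were tested, AT5G65360 among them. Of the other 7, 0 passed without or with the block, where 0.0418% and 0.188% of all tested probe sets did, all higher in yda-2. In limma without the block, 0 had an unadjusted p under 0.05, against 3.22% of all. Their median log2 fold change was 0.21, with 5 genes above 0 and 2 below, beside a median of 0.02 over all tested probe sets. The median of the 7 was -0.04 without WT replicate 2, an array that correlated least with the others. It was 0.04, 0.05 and 0.04 without WT replicate 3, yda-2 replicate 3 or yda-2 replicate 4. Without any other single array it lay between 0.14 and 0.44, and with array weights it was 0.02. 0 of the 7 were lower in yda-2 in 4 of 4 pairs, where 7.10% of all tested probe sets were. With 7 genes, counts of 0 cannot be told apart from these shares.

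AT1G09200 is a second H3.1 gene and encodes the same protein as AT5G65360. Its signal was 3075.7, 2725.9, 3630.0 and 2700.0 in WT and 2840.8, 3222.5, 3029.8 and 2531.6 in yda-2. The genotypes overlapped over most of their range, and the mean was 3033 ± 433 for WT and 2906 ± 294 for yda-2 (SD, n = 4 each). Its log2 fold change was -0.06 (SE 0.23, limma adjusted p = 1.00). The pair difference of AT5G65360 minus that of AT1G09200 was 0.004, -0.72, -0.30 and -0.46 on the log2 scale. In pair 1 both H3 genes were thus lower in yda-2 by the same amount, and in the other pairs AT5G65360 was the lower of them. This difference between the genes was not tested, since AT5G65360 was chosen for its genotype contrast. Several H3 genes have near-identical coding sequence, so a probe set named for one can bind transcripts of others, which was not tested. By the array's naming, the suffix of the PRL probe set marks probes that may match more than one transcript.

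HIS4, a histone H4 gene read by a probe set of the kind that covers a gene family, averaged 1530 ± 206 for WT and 1432 ± 267 for yda-2, a log2 fold change of -0.10. The H2B genes HTB2 and AT2G28720 had log2 fold changes of 0.02 and 0.25, HTB2 turning to -0.03 after median centring of the arrays. AT2G28720 stood at -0.14 in replicates 1 and 2 and at 0.65 in replicates 3 and 4. The linker histone genes AT1G06760 and AT2G30620, whose H1 proteins bind the DNA between nucleosomes, stood at 0.33 and 0.21, and without WT replicate 2 at 0.04 and -0.13. WT replicate 2 held the lowest signal of both H1 genes, 448.6 and 1190.1. HIS1-3, a linker histone known to be induced by water deficit, stood at 0.25 and likewise differed in direction between those sets, at -0.41 in replicates 1 and 2 and 0.91 in replicates 3 and 4.

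**Figure D4:**
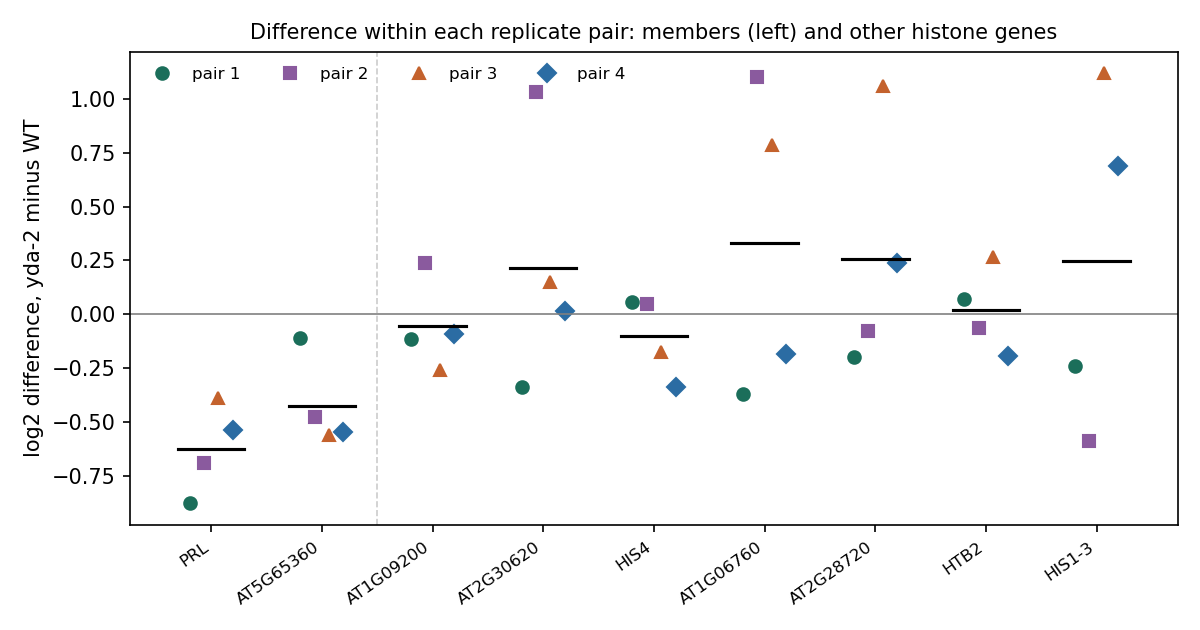
Log2 difference (yda-2 minus WT, from log2(signal + 16)) within each of the 4 replicate pairs, for PRL and AT5G65360 (left of the dashed line) and the other 7 tested histone genes in order of mean signal; symbols mark pairs 1 to 4 and bars their mean. All 4 symbols lie below 0 for PRL and AT5G65360, and for each of the other 7 genes at least 1 pair lies above 0 and at least 1 below.

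Leaf tissue was plain in the arrays. Of 10 mesophyll genes listed, 4 were tested (RCA, LHCB4.3, PSAE-1 and PSBW), with mean signals up to 12160. All 4 passed the harvest test on their brightest probe sets, where 8.29% of all tested probe sets passed. RCA, PSAE-1 and PSBW were brighter in harvests 1 and 2, and LHCB4.3 in harvests 3 and 4. Whether the difference in array range between these replicates had a part in this was not tested. LHCB4.3, a light-harvesting antenna gene, was lower in yda-2 in 4 of 4 pairs, with a log2 fold change of -1.08 (limma adjusted p = 1.00, and 0.119 with the block). The other 3 had log2 fold changes of -0.44 to -0.18 on their brightest probe sets and were lower in yda-2 in 2 or 3 of 4 pairs. Another PSAE-1 probe set, with a mean signal of 10260, stood at -0.12 and passed the harvest test (limma adjusted p = 0.0216). The dimmest PSAE-1 probe set stood at 0.20 and did not pass the harvest test (limma adjusted p = 0.0916). Nor did a dimmer one of PSBW, at -0.34 (limma adjusted p = 0.0536). Of 11 stomatal lineage genes listed, 1 was tested, STOMAGEN, a leaf-derived peptide that promotes stomata. Its log2 fold change of 0.25 (SE 0.41) turned to -0.21 without WT replicate 2 and to -0.21 with array weights. It was 0.94 in replicates 1 and 2 alone and -0.44 in replicates 3 and 4 alone. Whether leaf cell makeup moved with PRL and AT5G65360 was not tested.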

How the data were processed

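Total RNA of 4 WT and 4 yda-2 replicates of rosette tissue was read on Affymetrix AtGenome1 arrays. The deposited table holds 1 linear signal intensity per probe set and array, which the authors scaled to an average of 500, per the labels. The summary software is not given in the sources used here, and there are no detection calls. Median signals per array lay between 125.7 and 190.3, and the number of arrays limits the precision.

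Tests left out 50 control probe sets and those with a mean signal under 100, which kept 58.1%. Fold changes are differences of log2(signal + 16), a scale on which dim probe sets change less than their signal does. Genotypes were compared, and harvests by a moderated F test with genotype as a term, with limma 3.58.1 in R 4.3.3 (eBayes with trend), with Benjamini-Hochberg adjustment over all 4788 probe sets and a threshold of 0.05. Both fits were tested on simulated data with independent noise between arrays and, for the genotype fit, no difference between harvests. The genotype simulation thus lacked the harvest differences of the real arrays. P-values of the genotype fit without the block rest on the spread between these biological replicates. With the block, genotypes are compared within the replicate pairs. The harvest test compares the replicates themselves, against the spread left between arrays once genotype and replicate are fitted. No harvest has a repeat array of the same genotype. Figures used matplotlib 3.10.9.

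The deviations of same-numbered arrays from their genotype means correlated at 0.596, 0.296, 0.324 and 0.577 across probe sets. By these deviations 6 of 8 arrays correlated best with the same-numbered array, and by log2 signals 4 of 8. The labels give replicates as separate growths, so the numbers were taken to pair the arrays. Names come from the platform annotation, updated to TAIR10.1 symbols. Of the tested probe sets, 2035 have 1 named gene, and the brightest stood for a gene with several. Named were both genes, every measured gene of the replication, histone and cell cycle lists and, for each of the 2, the 5 most alike genes. TOPII, AT5G26680 and the marker genes were named outside this rule. The members and lists were chosen with earlier results of these data known. Alternatives were other pseudocounts, filters, normalizations, eBayes settings, array weights, the replicate block and leaving out arrays or pairs.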

Additional observations from a re-analysis of the deposited data

How the results depend on the processing

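PRL and AT5G65360 were below 0 under all 27 settings, from -0.79 to -0.45 and from -0.55 to -0.29 in log2 fold change. Both were chosen for low values in yda-2 on these arrays, so the shared sign adds no support. Changes of filter, trend or robust fitting, and the block over all arrays, cannot move a fold change. With the block it was thus -0.62 for PRL and -0.42 for AT5G65360. On leaving out 1 array PRL lay between -0.76 and -0.45 and AT5G65360 between -0.53 and -0.30. The block changed no call of a gene named here. The harvest test passed for neither gene under any of 17 settings, with an adjusted p of 0.144 to 0.671 for PRL and 0.339 to 0.798 for AT5G65360. None of the other 7 histone genes passed under any of the 27 settings in which it was tested, and their median lay between -0.04 and 0.44 without 1 array (-0.04 without WT replicate 2, 0.44 without yda-2 replicate 1). The count of genotype calls, 2, was 0 with a pseudocount of 1, a minimum signal of 200, quantile normalization, median centring or replicates 1 and 2 alone, 1 with no filter, 9 with the replicate block, 11 with array weights and 0 to 2 without 1 array. With the block it was 0 to 28 without 1 pair (28 without pair 2), and 0 after median centring or quantile normalization, alternatives added after seeing the data. The count of harvest calls, 397, was 230 with no filter, 205 after quantile normalization, 138 without the trend, and 31 to 1474 without 1 array (31 without yda-2 replicate 1, 1474 without yda-2 replicate 2). The cause was not tested. Signals near background limit TOPII and AT5G26680.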
